A study of Mus musculus with 16 samples.

Results

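The serum amyloid and acute phase genes examined here are Saa1, Saa2, Saa3, Hp, Orm1, Lbp, Cp, Ptx3, Serpina3n and Socs3. They were chosen by name, and a probe was taken where its accession maps to 1 of these symbols. This gave 1 probe for each of the 10 genes, of 55681 probes on the array. RNA of the bladder body was measured in C57BL/6 mice on 16 one-colour Agilent arrays, with 4 arrays in each of 4 groups. MAT males and MAT females were 12 months old, and AGED males and AGED females were 27 to 30 months old. The labels name no transgene and no drug, and the groups differ in age and sex. The study used 4 bladders per group, so p-values measure the spread between mice. Every direction of an age change follows the labels of the arrays. With these labels Chil3 and S100a9 were higher and Kcnj5 was lower in AGED arrays of both sexes, which is opposite to the direction the study gives for these genes. Which direction is right cannot be told from the files, and it bears on every age change below, that of Saa3 included. The question is how these genes differ between AGED and MAT bladders of each sex. The genes were listed with earlier results of these data known, among them a large rise of Saa3 in AGED males. The male change of Saa3 is therefore described without a test.

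The acute phase response is the change in plasma proteins that follows infection or tissue injury. Cytokines of the interleukin-6 family act through gp130, JAK kinases and STAT3, and interleukin-1 and TNF act through NF-kB, and together with C/EBP factors they raise transcription of these genes, best known in hepatocytes. Saa1 and Saa2 encode serum amyloid A apolipoproteins that travel on high density lipoprotein, whereas Saa3 in the mouse is made mainly outside the liver, for instance by activated macrophages and adipocytes. In the bladder, acute phase genes are known from the response to bacterial infection.

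The 3 serum amyloid A genes lie close together on chromosome 7. On GRCm38.p6, Saa3 spans chr7:46711998-46719615, Saa1 chr7:46740497-46743181 and Saa2 chr7:46751833-46754313. Saa1 is read from the minus strand and Saa2 from the plus strand, with 8651 bases between the genes. RefSeq windows before a transcription start were found for 7 of the 10 genes, namely Saa1, Saa2, Saa3, Cp, Ptx3, Serpina3n and Socs3. The 250 bases before a RefSeq start are shown for the 3 serum amyloid genes, because their signals differed so widely in the same bladders, and for Cp, which stood out on the same AGED male array as Saa1 and Saa3. The starts used are not always the outermost. The Saa3 window and the Cp window shown lie wholly within the annotated gene span, as do 201 bases of the Saa1 window and none of the Saa2 window. Each is written 5′ to 3′ on the strand of its gene, and capitals mark matches to the C/EBP letters TTNNNCAA on either strand.

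Saa1, chr7:46742981-46743230, minus strand: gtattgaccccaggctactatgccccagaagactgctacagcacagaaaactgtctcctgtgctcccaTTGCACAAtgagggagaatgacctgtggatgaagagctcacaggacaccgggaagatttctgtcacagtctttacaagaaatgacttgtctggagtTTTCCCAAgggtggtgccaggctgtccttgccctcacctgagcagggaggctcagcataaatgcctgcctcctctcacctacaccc
Saa2, chr7:46751583-46751832, plus strand: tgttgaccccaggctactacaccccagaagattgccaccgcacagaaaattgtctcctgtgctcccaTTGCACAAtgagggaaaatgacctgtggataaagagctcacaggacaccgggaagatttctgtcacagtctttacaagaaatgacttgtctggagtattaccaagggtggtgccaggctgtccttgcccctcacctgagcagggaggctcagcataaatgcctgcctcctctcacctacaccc
Saa3, chr7:46715677-46715926, minus strand: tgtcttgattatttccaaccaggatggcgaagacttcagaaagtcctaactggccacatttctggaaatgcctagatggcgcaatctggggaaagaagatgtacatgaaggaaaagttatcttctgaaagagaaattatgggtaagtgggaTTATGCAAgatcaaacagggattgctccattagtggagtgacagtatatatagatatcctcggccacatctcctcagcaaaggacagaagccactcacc
Cp, chr3:19956999-19957248, plus strand: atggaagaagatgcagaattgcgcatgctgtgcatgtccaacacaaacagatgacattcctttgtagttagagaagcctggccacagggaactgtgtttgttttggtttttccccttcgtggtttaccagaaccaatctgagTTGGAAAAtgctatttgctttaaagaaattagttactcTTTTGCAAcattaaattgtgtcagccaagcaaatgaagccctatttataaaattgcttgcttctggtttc

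The windows of Saa1 and Saa2 were 94.8% identical over a global alignment, and both held the match TTGCACAA at nearly the same distance from the start. The window of Saa3 was 50.9% identical to that of Saa1 and 50.6% identical to that of Saa2, and it held the match TTATGCAA. The second match in Saa1, TTTCCCAA, lies where the letters of Saa2 differ. For Cp the downstream of 2 RefSeq windows is shown, and it held TTGGAAAA and TTTTGCAA, while the other Cp window held no match to the C/EBP letters. Of the other windows not shown, that of Ptx3 held 1 such match and those of Serpina3n and Socs3 held none. A match to TTNNNCAA is common, since 33.3% of the 32851 mouse windows of this length hold one. The NF-kB consensus motif, held on either strand by 7.25% of all windows, was found in no window of these genes. The STAT letters TTCNNNGAA, which read the same on both strands and are held by 7.02% of all windows, were found in Socs3 alone. No match of the 3 kinds overlapped another kind.

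Signals are given as log2 of the processed signal minus the 75th percentile of the array, so 0 is the level that 75% of the spots stay below. A spot is called well above background when its signal clears the local background by the margin of the scanner software. Between 52.3% and 68.2% of the probes on an array were well above background, with AGED male replicate 1 the lowest. That array was also the dimmest of its group: its 75th percentile (log2) was 9.39, and those of the remaining AGED males lay between 10.13 and 10.24. The arrays of a group correlated at 0.958 or more over the tested genes, with the lowest value among AGED males. The markers Cnn1 and Tagln of smooth muscle and Upk1a and Upk3a of urothelium were well above background on every array, with group means of 6.58 or higher. The females shared 1 slide and the males another, and each slide carried its MAT samples in row 1 and its AGED samples in row 2. Age therefore cannot be told apart from the slide row, nor sex from the slide. In whole bladder RNA, more cells of a type and more RNA per cell cannot be told apart either.

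A gene was called changed at a limma adjusted p under 0.05 and at least 2-fold, in 1 model of all 16 arrays with adjustment over the 26781 genes tested. A probe entered the test when well above background on at least 4 arrays, which 9 of the 10 genes passed, all but Saa2. Of all genes tested, 0.276% were called with a higher AGED level and 0.571% with a lower one in males, and in females these shares were 0.175% and 0.0112%. Apart from Saa3, whose male change is a description, 0 of the genes examined were called in males and 0 of 9 in females. Without adjustment, the test per gene used in the study's methods passed its threshold for 3 of the 9 in females, namely Saa3, Ptx3 and Orm1. Among all 26781 genes it passed for 393 in females. Orm1 had entered the test only through the MAT females, where it is high, so its pass is no independent support. The median log2 change over the 9 genes was 0.55 in males and 0.54 in females, with 8 of 9 above 0 in each sex. Over all genes the median was 0.001 in males and -0.0026 in females, with 50.1% and 49.6% above 0. The male values include Saa3, whose rise was known beforehand, and Orm1, which was near background in males, so they are a description. Complete separation of the 4 AGED from the 4 MAT arrays was seen for 3.86% of all genes with AGED above and 3.99% with AGED below in males, and for 5.01% above and 5.78% below in females.

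**Figure D1:**
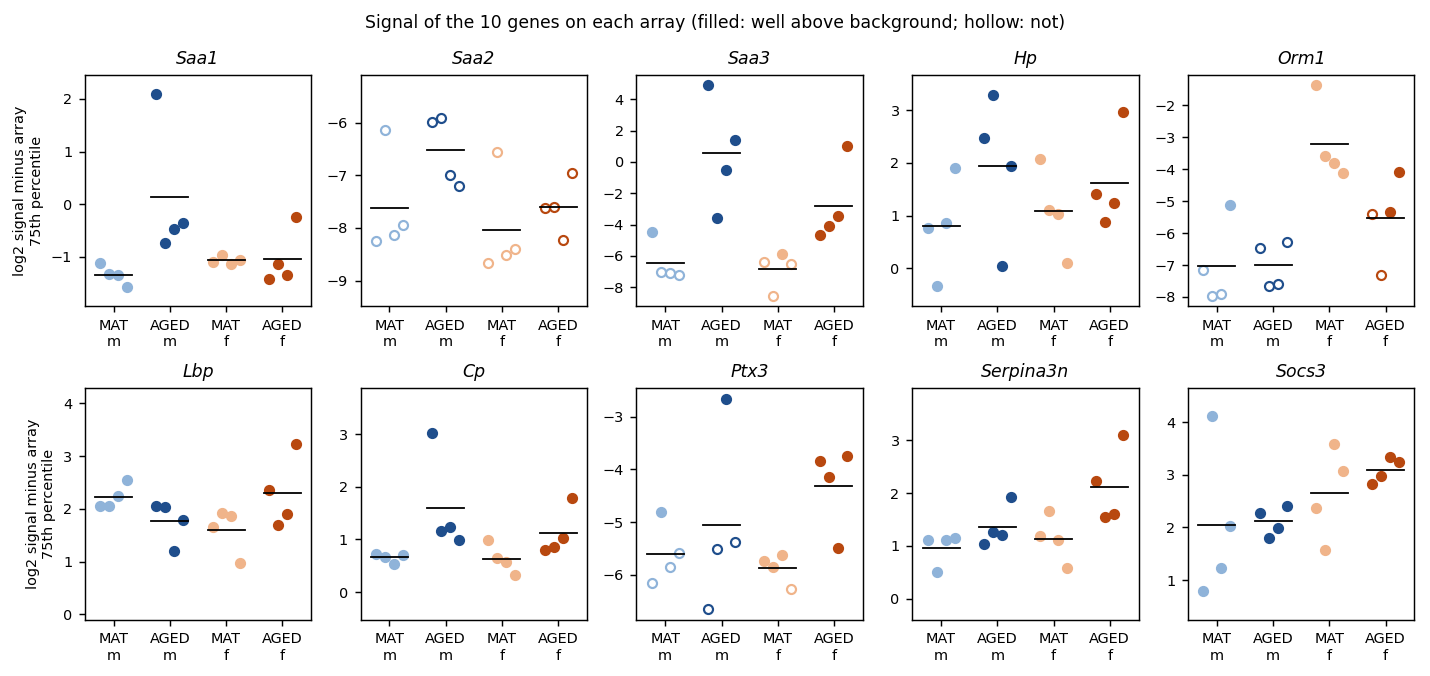
Log2 signal relative to the array's 75th percentile (vertical axis) for the 10 genes on each of the 16 arrays, with males on the left and females on the right and MAT before AGED in each sex. Points are arrays in replicate order, filled where well above background, and lines are group means. Saa3 is filled on 1 of 4 MAT arrays and 4 of 4 AGED arrays in each sex, and Saa2 is hollow throughout.

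Saa3 showed the widest range of the 10 genes. In MAT males its log2 signal was -4.49, -7.05, -7.11 and -7.23 on replicates 1 to 4, and only replicate 1 was well above background. In AGED males it was 4.92, -3.59, -0.52 and 1.38, and all 4 arrays were well above background. Every AGED male array thus lay above every MAT male array, but the AGED arrays themselves spanned a 364-fold range. The group means were -6.47 ± 1.32 (SD, n = 4) in MAT and 0.55 ± 3.56 (SD, n = 4) in AGED males, a difference of 7.02 on the log2 scale or 129-fold. The difference was 5.56 without AGED male replicate 1. With 3 of the 4 MAT signals near background its size depends on how background is treated, and it was 3.94 after normexp background correction.

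In females the AGED arrays again lay above the MAT arrays. The log2 signal of Saa3 was -6.39, -8.56, -5.86 and -6.52 in MAT females, where only replicate 3 was well above background. In AGED females it was -4.67, -4.10, -3.47 and 1.02, and all 4 arrays were well above background. The 2 groups did not overlap, but replicate 4 was far above the other AGED females. The log2 change was 4.03 (standard error 1.52, 95% confidence interval 0.79 to 7.28), and it did not pass the test (limma adjusted p = 0.371). It was 2.76 without AGED female replicate 4 and 1.73 after normexp correction. The male change exceeded the female change by 2.98, which rests on the male change and is likewise given without a test.

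Saa1 was well above background on all 16 arrays and kept to a narrow band except in AGED mice. Its log2 signal was -1.12, -1.33, -1.34 and -1.57 in MAT males and 2.09, -0.74, -0.47 and -0.37 in AGED males. All AGED male arrays lay above all MAT male arrays, and replicate 1 stood far above the other 3. The change was 1.47 or 2.77-fold (standard error 0.47, interval 0.47 to 2.47), which did not pass the test (limma adjusted p = 0.134). Without AGED male replicate 1 it was 0.81, a change of less than 2-fold. After normexp correction it was 0.47. Over all alternatives the lowest limma adjusted p of this male change was 0.00765, but no alternative met both the p and the fold limit. In females, Saa1 was -1.10, -0.95, -1.13 and -1.06 in MAT and -1.42, -1.14, -1.35 and -0.24 in AGED arrays, with replicate 4 highest. The 2 female groups overlapped and their means differed by 0.02 (interval -0.97 to 1.02, limma adjusted p = 0.993). The age changes of the sexes differed by 1.44 (interval 0.03 to 2.85, limma adjusted p = 0.496). When both AGED male replicate 1 and AGED female replicate 4 were left out, this difference was 1.06 and was called (limma adjusted p = 0.0240). These 2 arrays were picked after their high values had been seen, and leaving them out narrows the spread, so this call is no test.

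Saa2 was not well above background on any of the 16 arrays. Its signals ran from -8.24 to -6.15 in MAT males, -7.20 to -5.91 in AGED males, -8.66 to -6.56 in MAT females and -8.23 to -6.97 in AGED females. These are background readings, so no fold or test is given for it. The neighbouring Saa1, with almost the same upstream sequence, was measured on every array. The annotation lists each of the 2 symbols as an older name of the other, so the probes were assigned by accession and not by symbol.

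**Figure D2:**
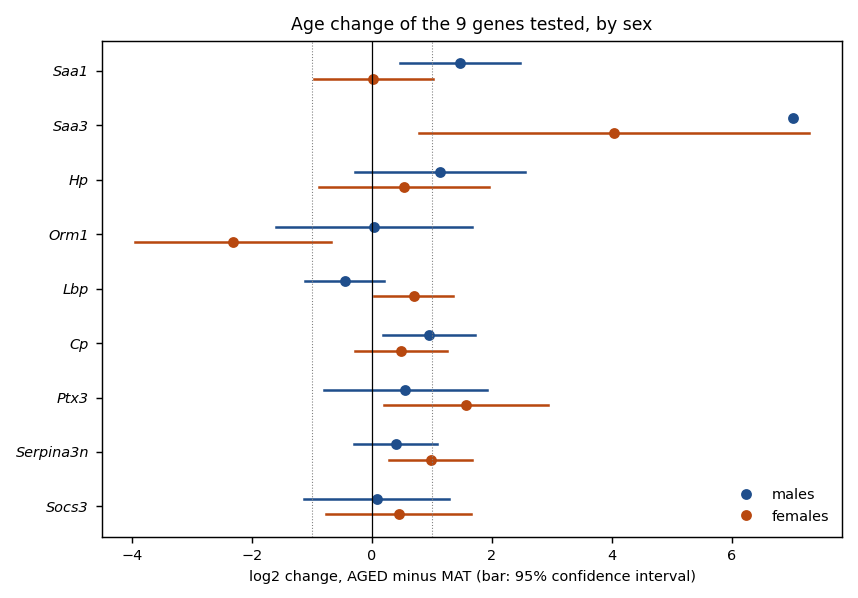
Log2 change between AGED and MAT arrays (horizontal axis) for the 9 tested genes in males and females, with 95% confidence intervals from limma; the male value of Saa3 is shown without one. Dotted lines mark 2-fold. The points of Saa3 are at 7.02 in males and 4.03 in females, that of Orm1 in females is at -2.32, and the other points lie between -0.46 and 1.56.

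Among the plasma proteins, Cp, the copper-carrying ferroxidase ceruloplasmin, had a male pattern close to that of Saa1. The log2 signal of Cp was 0.73, 0.66, 0.53 and 0.71 in MAT males and 3.02, 1.17, 1.23 and 1.00 in AGED males. The groups did not overlap, and AGED male replicate 1 was again far above the others. The change was 0.95 or 1.93-fold (standard error 0.36, limma adjusted p = 0.204), and 0.47 without that array. In females Cp was 0.64 ± 0.27 (SD, n = 4) in MAT and 1.12 ± 0.45 (SD, n = 4) in AGED arrays, a change of 0.48 with overlapping groups (limma adjusted p = 0.697).

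Hp, which encodes the haemoglobin-binding protein haptoglobin, varied strongly within every group. Its log2 signal ranged from -0.33 to 1.90 in MAT males and from 0.04 to 3.28 in AGED males, and from 0.10 to 2.08 in MAT females and from 0.88 to 2.96 in AGED females. The groups overlapped in both sexes. The change was 1.14 in males (interval -0.28 to 2.55, limma adjusted p = 0.411) and 0.54 in females (interval -0.88 to 1.95, limma adjusted p = 0.845).

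Lbp encodes the protein that hands bacterial lipopolysaccharide to CD14, and it was the one tested member whose AGED male mean was below that of MAT males. In MAT males its mean log2 signal was 2.22 ± 0.24 (SD, n = 4), against 1.77 ± 0.40 (SD, n = 4) in AGED males, a change of -0.46 (interval -1.11 to 0.20, limma adjusted p = 0.482). In females it was 1.60 ± 0.44 (SD, n = 4) in MAT and 2.30 ± 0.68 (SD, n = 4) in AGED arrays, a change of 0.69 (interval 0.04 to 1.35, limma adjusted p = 0.443). The arrays of the 2 ages overlapped in both sexes. The difference between the age changes of the sexes was -1.15 (interval -2.08 to -0.22), and it did not pass the test (limma adjusted p = 0.378).

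Serpina3n encodes a secreted serine protease inhibitor related to antichymotrypsin. Its log2 signal was 1.11, 0.50, 1.11 and 1.15 in MAT males and 1.04, 1.27, 1.21 and 1.92 in AGED males. It was 1.19, 1.67, 1.11 and 0.58 in MAT females. In AGED females it was 2.22, 1.54 and 1.60 on replicates 1 to 3, and replicate 4 lay 1.96 above the MAT female mean. In both sexes the groups overlapped, and the highest array was an AGED replicate 4. The change was 0.39 in males (limma adjusted p = 0.570) and 0.98 or 1.97-fold in females (interval 0.29 to 1.67, limma adjusted p = 0.300). Without AGED female replicate 4 the female change was 0.65.

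Orm1, the lipocalin alpha-1-acid glycoprotein, differed from the other genes in that its female mean was lower at the older age. The log2 signal of Orm1 was -1.37, -3.58, -3.82 and -4.13 in MAT females, all 4 well above background, and -5.39, -7.32, -5.35 and -4.09 in AGED females, of which 2 were. The groups overlapped at 1 array of each. The change was -2.32, that is 4.98-fold lower (interval -3.94 to -0.69), and did not pass the test (limma adjusted p = 0.297). After normexp correction it was -1.08. Orm1 passed the filter only through the MAT females, so this comparison is no independent test. In males Orm1 was well above background on 1 MAT array and no AGED array, with signals from -7.96 to -5.13 and from -7.65 to -6.29, and no fold is given.

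Between the sexes, Orm1 showed the widest separation of the MAT groups. All MAT female arrays lay above all MAT male arrays, with a male minus female difference of -3.81 on the log2 scale, and such separation with males below was seen for 4.41% of all genes. Since 1 of 4 MAT male arrays was well above background, most of the male readings are background and no fold is given. Orm1 was well above background on 4 MAT female, 2 AGED female, 1 MAT male and 0 AGED male arrays. It therefore passed the filter only through the MAT females, where it is high, and calls in comparisons with them are no independent support. The difference did not pass the test (limma adjusted p = 0.0561). It was called with a floor on low signals (limma adjusted p = 0.0374) and not after normexp correction, where it was -1.13 with the 75th percentile (limma adjusted p = 0.181) and -1.33 with quantile normalization (limma adjusted p = 0.117). Adipocyte markers were set beside Orm1. All 9 of 9 listed were tested and 0 were called by age in either sex, but all 9 had a lower mean in AGED than in MAT females, with a median change of -0.83. Their summed signal, in multiples of the array's 75th percentile, was 60.4 to 199 in MAT females and 52.8 to 62.8 in MAT males, and 57.6 to 93.5 in AGED females and 32.0 to 58.0 in AGED males. MAT female replicate 1 was the highest array for the adipocyte sum, for Orm1 and for the summed hepatocyte markers (17.8). The order was not kept elsewhere, since AGED female replicate 2 had an adipocyte sum of 88.1 and Orm1 at -7.32. MAT female replicate 2 had 60.4 and -3.58. Adipoq, the adipocyte hormone adiponectin, had a mean log2 signal of 2.28 in MAT females and -1.87 in MAT males, and Lep, the hormone leptin, was well above background on MAT female arrays alone. The part of adipocyte or hepatocyte RNA in the Orm1 values was not tested. Orm2, a close relative whose RNA may also bind the Orm1 probe, followed the same course, with means of -3.08 in MAT females, -5.48 in AGED females, -6.81 in MAT males and -6.93 in AGED males.

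**Figure D3:**
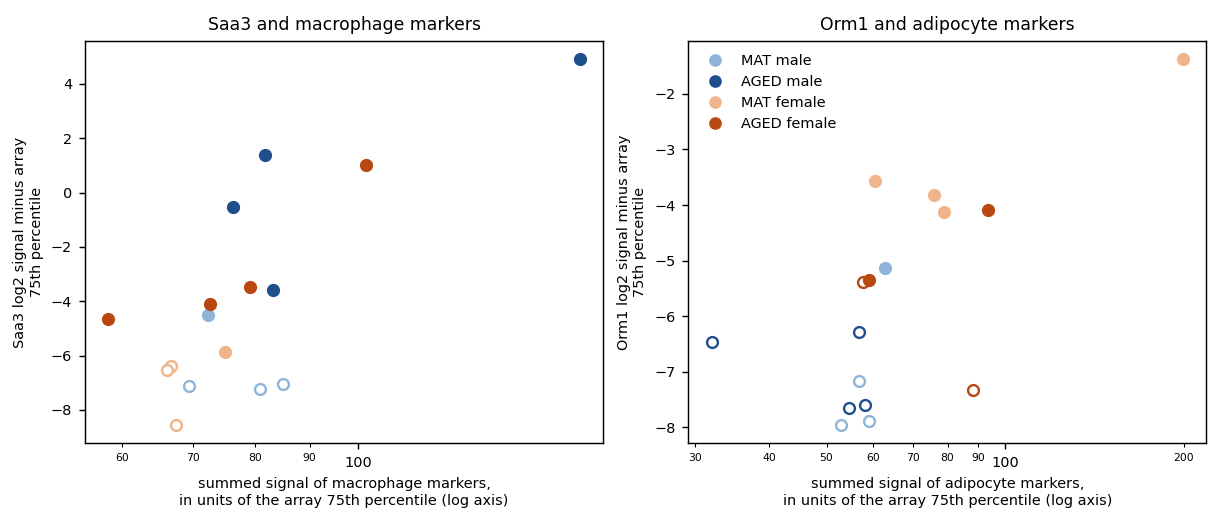
Log2 signal of Saa3 against the summed signal of 8 tested macrophage markers (left) and of Orm1 against that of 9 adipocyte markers (right) on the 16 arrays; the horizontal axes are logarithmic and in multiples of the array's 75th percentile, and hollow points were not well above background. AGED male replicate 1 is highest for Saa3 and at 161 for the macrophage sum, and MAT female replicate 1 is highest for Orm1 and at 199 for the adipocyte sum.

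Ptx3 encodes a long pentraxin, a pattern recognition molecule made at the site of inflammation by myeloid and stromal cells. The log2 signal of Ptx3 was -5.73, -5.85, -5.63 and -6.27 in MAT females, where 3 of 4 arrays were well above background, and -3.84, -4.15, -5.50 and -3.75 in AGED females, where all 4 were. The AGED females lay above the MAT females without overlap, with 3 of the 4 well clear of them and replicate 3 close to them. The change was 1.56 or 2.95-fold (standard error 0.64, interval 0.20 to 2.93), which did not pass the test (limma adjusted p = 0.405). It was 0.65 after normexp correction. In males 1 array of each age was well above background, and the highest value, -2.66 on AGED male replicate 3, set the group mean apart. The male change was 0.55 (interval -0.81 to 1.92, limma adjusted p = 0.692), and -0.24 without that array.

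Socs3, the feedback inhibitor that STAT3 induces and that blocks gp130 signalling, was well above background on all 16 arrays. Its log2 signal was 0.79, 4.11, 1.23 and 2.02 in MAT males and 2.28, 1.79, 1.98 and 2.40 in AGED males. It was 2.37, 1.57, 3.58 and 3.08 in MAT females and 2.83, 2.97, 3.34 and 3.24 in AGED females. The MAT mice of both sexes were scattered and the AGED mice were close together, with an SD of 1.47 in MAT and 0.28 in AGED males and of 0.88 in MAT and 0.24 in AGED females. The equality of these spreads was not tested. The change in the mean was 0.08 in males (interval -1.13 to 1.28, limma adjusted p = 0.961) and 0.45 in females (interval -0.76 to 1.66, limma adjusted p = 0.851). AGED males lay below AGED females without overlap, by 0.98 (limma adjusted p = 0.291). Of all genes, 4.76% had every AGED male below every AGED female array and 8.69% every AGED male above.

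The AGED arrays of a sex were not alike. In females, replicate 4 was the highest AGED array for 8 of the 9 tested genes, all but Socs3. Relative to the MAT female mean it was higher by 7.86 for Saa3, 2.12 for Ptx3, 1.96 for Serpina3n, 1.88 for Hp and 1.62 for Lbp on the log2 scale. It was also the highest AGED female array for the summed markers of smooth muscle, fibroblasts, macrophages, neutrophils, adipocytes and uterus and oviduct. For those of urothelium, endothelium, mesothelium, T and B cells, hepatocytes, blood and male accessory gland another array was highest. Its 75th percentile (log2), 10.04, was the lowest of the AGED females. No share of all tested genes led by this array is given. In males no array led to the same extent, with replicate 1 highest for 4 genes and replicate 4 for 3. AGED male replicate 1 exceeded the MAT male mean by 11.39 for Saa3, 3.43 for Saa1 and 2.37 for Cp, yet it was the lowest AGED male array for Ptx3 and Serpina3n. Saa1 and Cp thus stood out on 1 AGED male array, but like Saa3 they were above the MAT male mean on all 4. On that array the adipocyte sum was 32.0 against 54.5 to 58.0 on the other AGED males. The sum of the 5 endothelium markers measured on every array was 5.30 there, within the 4.19 to 5.91 of the others. The part of cell composition in these values was not tested.

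**Figure D4:**
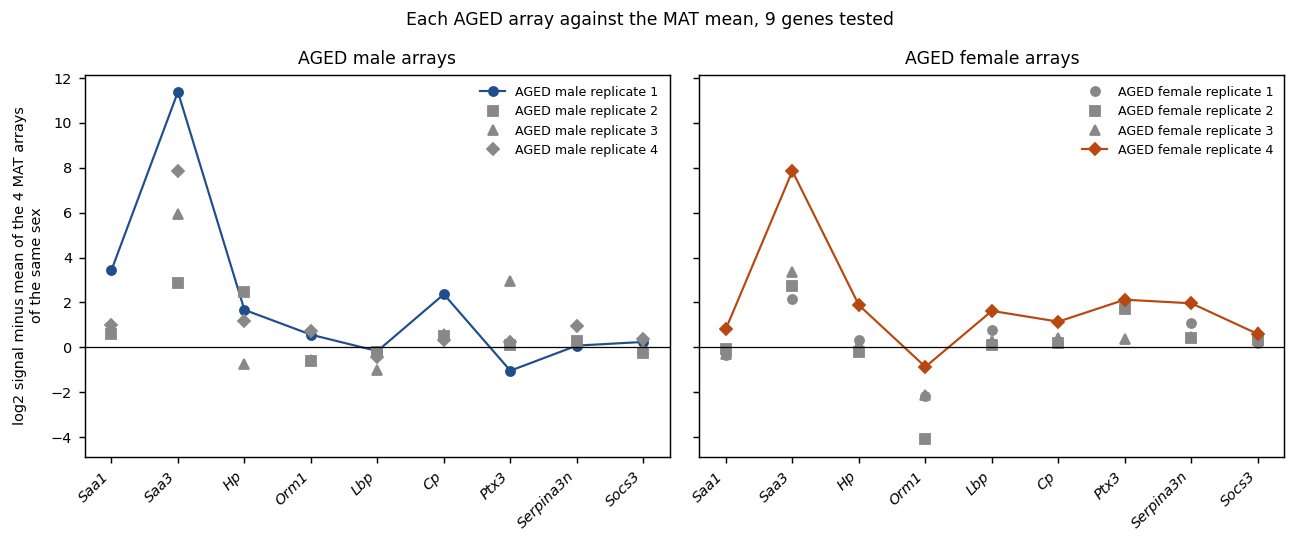
Log2 signal of each AGED array minus the mean of the 4 MAT arrays of its sex (vertical axis) for the 9 tested genes, males on the left and females on the right. The joined points are AGED male replicate 1, at 11.39 for Saa3, and AGED female replicate 4, at 7.86 for Saa3 and highest for 8 of the 9 genes.

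Macrophage and neutrophil markers were set beside these arrays. Of 9 listed macrophage markers 8 were tested, and 1 was called higher in AGED males, the scavenger receptor Marco, and 0 in females. Their summed signal was 69.3 to 85.0 in MAT males, 66.1 to 74.9 in MAT females and 58.3 to 102 in AGED females, with AGED female replicate 4 the highest of its group. In AGED males it was 161 on replicate 1 and 76.3 to 83.2 on the other 3 arrays. Of 9 listed neutrophil markers 6 were tested, and S100a8 and S100a9 were called higher in AGED males and 0 in females, while Mmp8 and Ngp were well above background on no array. The summed neutrophil signal, most of it from Csf3r, was 80.7 to 90.1 in MAT and 80.9 to 99.1 in AGED males, and 69.5 to 75.7 in MAT and 62.1 to 93.1 in AGED females. Of 7 listed hepatocyte markers 4 were tested, and Apob was well above background on no array. Their summed signal was 3.48 to 17.8 over all arrays, with MAT female replicate 1 the highest. No gene was called by age in the lists for smooth muscle, urothelium, fibroblasts, adipocytes, endothelium, mesothelium, T and B cells, hepatocytes, blood, male accessory gland or uterus and oviduct. The T and B cell markers nonetheless ran in 1 direction within each sex, with 8 of 8 means higher in AGED males (median change 0.51) and 8 of 8 lower in AGED females (median change -0.46). The part of macrophages and neutrophils in the values of the acute phase genes was not tested.

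Across the 16 arrays, the genes whose profile came closest to that of Saa3 were Chil3, Marco, Acod1, Fpr1 and Cd5l. Likeness was the root mean square difference between centred log2 profiles, which was 2.01 for Chil3, 2.08 for Marco, 2.26 for Acod1, 2.26 for Fpr1 and 2.33 for Cd5l, where the Saa3 profile itself had a standard deviation of 3.64. Chil3 is a chitinase-like protein of macrophages, Acod1 makes itaconate, Fpr1 is a formyl peptide receptor and Cd5l is a secreted macrophage protein. Acod1 was well above background on 4 arrays only. Their own differences between AGED and MAT means were 2.84 to 5.68 in males and 0.78 to 2.54 in females, against 7.02 and 4.03 for Saa3. The genes were picked for likeness to Saa3 over these same arrays, so differences in the same direction follow from the choice.

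Male and female levels of the acute phase genes were compared at each age. Of all genes tested, 0.149% were called for a difference between the age changes of the sexes at an adjusted p under 0.05 with no fold limit, and 0.157% of the MAT and 3.11% of the AGED sex comparisons were called. Apart from Saa3, for which these comparisons are a description, 0 of the acute phase genes were called in each of the 3. Besides Orm1, MAT males and MAT females were separated without overlap for Lbp, with males higher by 0.62 (interval -0.04 to 1.28, limma adjusted p = 0.386), where 14.4% of all genes had every MAT male above every MAT female array. In AGED mice the mean of Saa3 was 3.35 higher in males, given without a test. Saa1 was 1.17 higher in AGED males (limma adjusted p = 0.129) and Serpina3n was 0.75 lower (limma adjusted p = 0.156), all with overlapping groups.

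The other acute phase proteins showed the same small number of calls. Of 28 genes listed, 18 were tested, and 1 was called higher in males and 0 in females. The gene called was Lcn2, which encodes an iron-scavenging lipocalin, with a log2 change of 1.05 in males (standard error 0.22, limma adjusted p = 0.0284) and 1.04 in females (limma adjusted p = 0.0791). Its mean rose from -1.01 ± 0.37 (SD, n = 4) to 0.04 ± 0.45 (SD, n = 4) in males. The male call was close to both limits and was lost without MAT male replicate 1, 3 or 4 and without AGED male replicate 3, where the change was 0.83. The female change was called under 4 of 36 alternatives, and the age changes of the sexes differed by 0.0079 (limma adjusted p = 0.996). The median change of the list was 0.07 in males and 0.45 in females, against 0.001 and -0.0026 over all genes. Of 7 proteins whose plasma level falls in an acute phase response, 4 were tested and 0 were called, with a log2 change of 0.06 in males and 0.25 in females for the iron carrier Trf and of -0.70 and -0.31 for the retinol carrier Rbp4. Of the 4 relatives of Ptx3 1 was tested, Nptx2, and it was not called.

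Upstream of these genes, no listed gene was called by age. Of 18 inducing cytokines and their receptors 16 were tested and 0 were called, and the signal transducer Il6st (gp130), among the brightest, changed by 0.08 in males and -0.17 in females. Il11ra1, the other of the 2 brightest, changed by -0.50 in males and 0.63 in females (limma adjusted p = 0.581 and 0.645). Of 19 signalling and transcription factors all were tested and 0 were called, and the 2 brightest were the NF-kB subunit Rela, with changes of -0.23 and 0.07, and the C/EBP factor Cebpd, with changes of -0.10 and 0.58. All 7 other members of the SOCS family were tested and 0 were called. The 2 brightest were Socs7, which changed by -0.0018 in males and 0.06 in females, and Cish, which changed by 0.34 and -0.18.

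Among receptors and binding partners of the acute phase proteins, 15 of 16 were tested. In males 1 was called higher and 1 lower, and in females 0 were called. Fpr2, a formyl peptide receptor that also binds serum amyloid A, rose in males from -4.51 ± 0.59 (SD, n = 4) to -2.29 ± 1.05 (SD, n = 4), a log2 change of 2.21 or 4.64-fold (standard error 0.48, limma adjusted p = 0.0316). The female change was 1.68 (limma adjusted p = 0.218), and it was called under 3 of 36 alternatives. The age changes of the sexes differed by 0.53 (limma adjusted p = 0.856). The male call was lost without MAT male replicate 1 or 3. Scarb1, the high density lipoprotein receptor that can take up serum amyloid A, fell in males from 1.91 ± 0.10 (SD, n = 4) to 0.54 ± 0.81 (SD, n = 4), a change of -1.37 (standard error 0.27, limma adjusted p = 0.0200). In females the change of Scarb1 was -0.25 (limma adjusted p = 0.815), and a difference between the sexes did not pass the test (limma adjusted p = 0.322). Scarb1 has 2 kept probes, and with their mean the male change was -0.75 and the call was lost (limma adjusted p = 0.0958). It was also lost without MAT male replicate 1, 2 or 3.

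**Figure D5:**
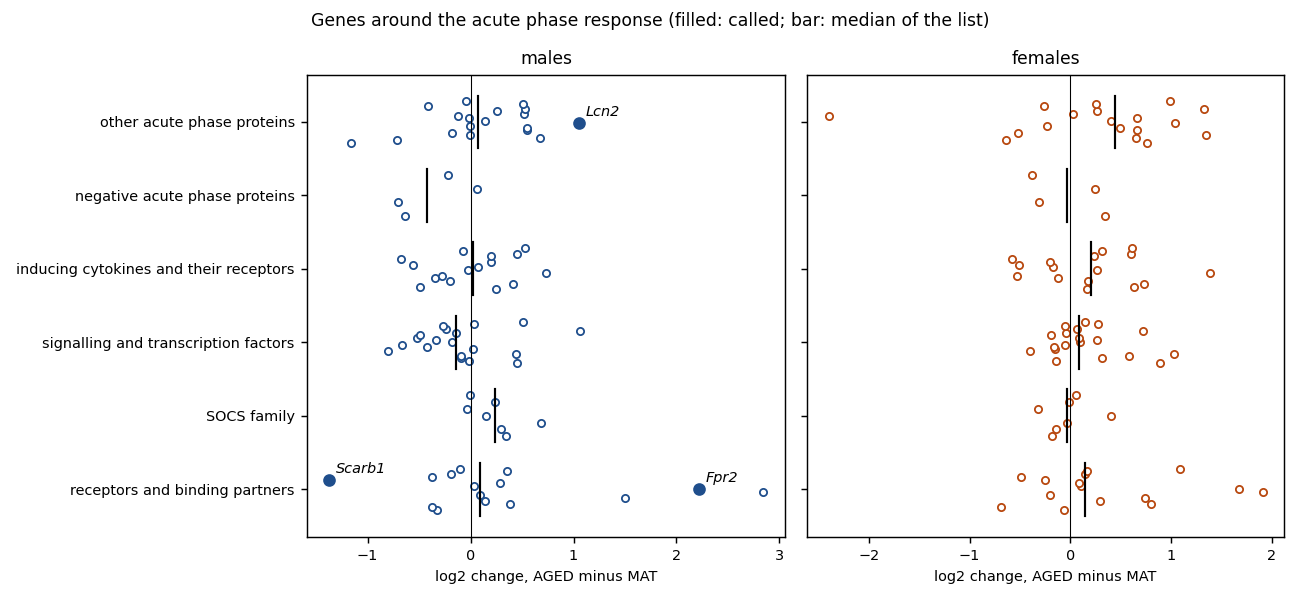
Log2 change between AGED and MAT arrays (horizontal axis) for every tested gene of 6 lists around the acute phase response, males on the left and females on the right; filled points were called and bars are list medians. Lcn2, Fpr2 and Scarb1 are the filled points in males, and no point is filled in females.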

How the data were processed

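Total RNA of bladder body was labelled with Cy3 and hybridized to 16 Agilent one-colour arrays. The authors deposited for each array the intensity of every spot as Feature Extraction wrote it, background-subtracted and not normalized between arrays (version 10.7.3.1 in the file headers, 9.1 in the submitters' processing notes). They also deposited a log2 table, and setting it against the scanner values showed the same signals less a constant per array, centred on the median of each probe. Its column medians ran from -0.125 to 0.290.

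The 10 genes and all gene lists were chosen with earlier results of these data known. From the deposited intensity, log2 processed signals minus the 75th percentile of the array's spots other than controls were used. Control spots and 399 probe values with an outlier flag were left out, and no spot was saturated. Probes were named by matching accessions to RefSeq genes of GRCm38.p6, and promoter windows came from RefSeq on that build, aligned with Biopython 1.88 (match 1, mismatch -1, gap -2). Probes well above background on at least 4 of 16 arrays were kept, which left 36972 probes. The kept probe with the highest mean represented each gene. A single limma model (version 3.58.1, R 4.3.3) with a mean for each of the 4 groups gave every comparison, with Benjamini-Hochberg adjustment over 26781 genes. Calls needed an adjusted p under 0.05 and a 2-fold change, with no fold limit for the difference between the sexes. Saa2 was below background in every group, so the exact permutation test planned for probes outside the model was not run. The code was tested on simulated arrays.

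Named from each list were the genes called in either sex or, where none was, the 2 with the highest mean signal, and for likeness to Saa3 the 5 closest genes with a symbol. Alternatives covered quantile and median scaling, the log2 table, normexp correction of median spot signals with an offset of 50, stricter and absent probe filters, a signal floor, the treatment of flags and of several probes, the methods' t-test, a variance trend, array weights, each sex alone, a replicate block, no fold limit, and leaving out each array. Leaving out 2 arrays together was added after seeing the data. The number of arrays limits the precision, and p-values measure the spread between samples on these 2 slides. Same-numbered arrays did not deviate together (correlations of -0.148 to 0.0661 over 8 pairs), so replicate numbers do not pair the samples.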

Additional observations from a re-analysis of the deposited data

Results flagged for a closer look

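Among the acute phase genes, 4 of 35 group values held 1 array far from the other 3. No share over all tested genes is set beside this count, and the genes were read on the same arrays, so the count is a description only. The measure is the gap between the outermost array and its nearest neighbour as a share of the group's range. In AGED males, replicate 1 was apart and high for Saa1 (0.867) and Cp (0.883). In MAT males, replicate 1 was apart and high for Saa3 (0.935), the 1 MAT male array on which Saa3 was well above background. In MAT males, replicate 2 was apart and low for Serpina3n (0.948). The 75th percentile of AGED male replicate 1 was itself apart and low (0.873), so the array with the highest Saa1, Saa3 and Cp values was the dimmest of its group.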

How the results depend on the processing

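Saa3 in males aside, no acute phase gene was called by age under any alternative except 3 in females under the methods' t-test without adjustment. The calls among all genes moved more, from 227 in males, 50 in females, 40 for the difference between the sexes, 42 between MAT sexes and 832 between AGED sexes. With normexp and the 75th percentile they were 753 in males, 465 for the difference and 16 between MAT sexes, and with normexp and quantile normalization 837, 588 and 15. Without a filter they were 547 in males, 18 in females, 6 for the difference and 1357 between AGED sexes. Array weights gave 200 in females, 292 for the difference and 621 between MAT sexes, the variance trend 68 and the mean of kept probes 25 for the difference, and a floor 78 between MAT sexes. Each sex fitted alone gave 14 in males and 94 in females. The methods' t-test gave 496 in males and 393 in females without adjustment and 0 and 1 with it. Dropping the fold limit gave 469 in males and 2549 between AGED sexes. With the replicate number as a block there were 3 calls in females and 14 for the difference; the block changed 1 call among the acute phase genes, Orm1 between MAT sexes (adjusted p = 0.0467 from limma). Leaving out single arrays gave 122 to 380 calls in males, 1 to 127 in females, 6 to 278 for the difference and 17 to 114 between MAT sexes. Without both AGED male replicate 1 and AGED female replicate 4 there were 87 in females, 213 for the difference and 108 between MAT sexes.

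Orm1 was the 1 gene of the 9 called between MAT sexes under the whole-group filter, the floor, the variance trend, array weights, the replicate block and without both of those arrays, and 0 to 1 were called when single arrays were left out. Since Orm1 passed the filter only through the MAT females, these calls are no independent support. Between AGED sexes, Saa3 aside because its male values are a description, 0 to 1 were called without single arrays. The 1 was Ptx3 without AGED male replicate 3, the array that held its highest AGED male value. Without both arrays, a setting added after seeing the data, 1 was called for the difference between the sexes, Saa1, and this is no test. The cause of these changes was not tested.

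Directions that turned all belonged to changes that did not pass the test. Orm1 in males was -0.49 with quantile normalization, -0.029 with median scaling and -0.14 without both arrays, and -0.27 to 0.67 without single arrays. Saa1 in females was -0.0051 with normexp, -0.017 with array weights and -0.24 without both arrays, and -0.24 to 0.15 without single arrays. Without single arrays Ptx3 in males ran from -0.24 to 1.09 and Socs3 in males from -0.34 to 0.77. For the difference between the sexes, Hp was -0.18 and -0.16 with the 2 normexp settings and Socs3 0.068 with array weights, and without single arrays Cp ran from -0.0070 to 0.69 and Socs3 from -0.79 to 0.32. Between MAT sexes, Cp was -0.010 with quantile normalization, -0.043 and -0.066 with normexp and -0.052 with array weights, Saa3 -0.056 and Ptx3 -0.018 with normexp and quantile normalization, and Ptx3 -0.0082 with array weights. Without single arrays the MAT values ran from -0.080 to 0.14 for Cp, -0.65 to 0.092 for Hp, -0.30 to 0.69 for Saa3 and -0.35 to 0.0065 for Serpina3n. Between AGED sexes, with normexp and the 75th percentile Hp was -0.46, Orm1 0.12 and Ptx3 0.16, with normexp and quantile normalization Hp was -0.47, and Hp ran from -0.13 to 0.95 without single arrays.

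Lcn2, Fpr2 and Scarb1 lost their male calls when each sex was fitted alone (adjusted p = 0.233, 0.202 and 0.245 from limma), and Fpr2 with the replicate block (adjusted p = 0.0683). A block for slide or slide row was not run, since the slide is the same as sex and the row the same as age. The slide column was the same as the replicate number, so the replicate block is also a block for the column. Signals near background limit Saa3 in MAT mice, Orm1 in males and Ptx3, and normexp brought the female change of Saa3 from 4.03 to 1.73.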

Other observations

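Rbp4, the plasma carrier of retinol and a protein also made by adipocytes, differed between the sexes at both ages. Its log2 signal was 1.22 lower in MAT males than in MAT females (standard error 0.21, limma adjusted p = 0.0292) and 1.62 lower in AGED males than in AGED females (limma adjusted p = 0.000773). Scarb1 was 1.18 lower in AGED males than in AGED females (limma adjusted p = 0.0168), with means of 0.54 and 1.72, whereas in MAT mice the means were 1.91 and 1.97. No gene of the lists examined was called for a difference between the age changes of the sexes.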
